A study of Homo sapiens with 6 samples.

Results

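The MYC, MAX and MXD network was examined in 22RV1 cells treated with bruceantin (BCT). It was taken as 10 genes, MYC, MYCN, MAX, MXD1, MXD3, MXD4, MXI1, MNT, MGA and MLX, found by their symbols among the 26255 genes of the deposited files. 22RV1 is a human castration-resistant prostate cancer cell line. The cells were grown in medium with serum and received either DMSO as vehicle (3 samples) or 10 nM BCT, a plant-derived quassinoid (3 samples), for 24 h. All samples come from this single line, and nothing states that the 3 samples of a group were separate cultures, so the p-values measure the spread between these samples only. The measurement is FPKM, the number of sequenced fragments of a gene scaled by transcript length and by library size, for each gene and sample. FPKM holds no read counts, so the depth behind each value is unknown here.

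MYC is a transcription factor of the basic helix-loop-helix leucine zipper class that binds DNA only as a dimer with MAX, at E-boxes with the core CACGTG, and activates genes of growth, ribosome assembly and nucleotide synthesis. MXD1, MXD3, MXD4, MXI1 and MNT compete with MYC for MAX and for the same sites, and recruit SIN3 and histone deacetylases. MGA also pairs with MAX, within a Polycomb complex named PRC1.6, and MLX is a MAX-like partner of the glucose sensor MondoA and of some MXD proteins. MYC is often amplified in prostate cancer, and its mRNA and protein are short-lived.

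The E-box is the sequence through which these proteins act, so the start-site windows of the network genes themselves were searched for it. RefSeq windows of 250 bases before and 50 bases after each start site on GRCh38.p14 were found for 9 of the 10 genes, and the promoter of MYC was not analysed here. CACGTG, which reads the same on both strands, was present in 3 of these 9 genes, or in 3 of their 14 windows (21.4%), against 7.26% of all 35116 windows. Counted by gene, it was present for 8.77% of the 27305 genes with a window and for 12.8% of the 10074 genes tested below that had one, a set that leaves out too many of the genes tested (79.1% matched) for a comparison to rest on it. They are shown from up to 30 bases before the motif to up to 30 bases after it, read in the direction of the gene, with the E-box in capitals. The MXD4 stretch is chr4:2262312-2262359 on the minus strand with the E-box beginning 238 bases before the start site, the MNT stretch is chr17:2401218-2401283 on the minus strand with the E-box 193 bases before it, and the MLX stretch is chr17:42567020-42567085 on the plus strand with the E-box 50 bases before it.
MXD4: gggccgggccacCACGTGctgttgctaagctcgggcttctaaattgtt
MNT: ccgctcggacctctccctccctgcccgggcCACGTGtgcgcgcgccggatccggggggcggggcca
MLX: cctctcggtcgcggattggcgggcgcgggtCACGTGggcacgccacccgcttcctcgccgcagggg
These matches are a description of the windows, and no binding was measured. Of the 3 genes, MXD4 and MNT fell with BCT and MLX was higher, as described below.

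Fold changes were computed on log2(FPKM + 0.1) and tested with limma for the 12729 genes whose mean over the 6 samples reached 1 FPKM. A gene was called when its adjusted p (Benjamini-Hochberg over all genes tested) was below 0.05 and its absolute log2 fold change above 0.85. The study names these thresholds and, elsewhere, a stricter one for the false discovery rate, and at an adjusted p below 0.01 there were also 5 network genes called lower and 0 higher. MYCN did not pass the filter on low values, which left 9 network genes. Of these, 5 were called lower, where 17.8% of all genes tested were, and 0 were called higher, where 13.9% of all genes tested were (31.6% were called in either direction). With the FPKM sums set equal, 1 network gene was called lower and 3 higher, and over all genes 668 were called lower and 5614 higher. With sums set equal without MIR6087 these numbers were 1 and 1, and 1208 and 3370. Upper quartile scaling, median ratio scaling and quantile normalization each gave 5 network genes called lower and 0 higher. The groups did not overlap in 9 of the 9 genes, which is near the background, since they did not overlap in 85.3% of all genes tested, and 82.1% passed the adjusted p alone. The sum of FPKM was 1169649 to 1572321 with DMSO and 757534 to 799838 with BCT, and the small RNA gene MIR6087 held 43.5% to 55.3% and 31.7% to 32.5% of it. The values were used as deposited, and the calls of network genes that these rescalings change are given beside each gene. BCT replicate 1 stood apart from the other BCT samples on the first principal component (40.2, against 63.8 and 65.0), on the side of the DMSO samples, and in 8 of the 9 network genes it was also the BCT sample nearest to the DMSO mean. Of 11 prostate luminal markers all 11 reached an average of 1 FPKM, with a summed level of 1170 to 1190 FPKM with DMSO and 2080 to 2210 FPKM with BCT, most of it from the keratins KRT8 and KRT18, which rose, while KLK3, KLK2 and TMPRSS2 fell. The 4 basal, 5 leukocyte and 4 endothelial markers were under that level, with sums of at most 0.707, 1.02 and 0.081 FPKM in any sample. Of the 6 fibroblast markers, COL1A1 alone exceeded 1 FPKM on average, and the list summed to 2.61 to 2.79 FPKM with DMSO and 5.88 to 7.11 FPKM with BCT. These RNA measures are per library, so fewer cells and less RNA per cell cannot be told apart.

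**Figure D1:**
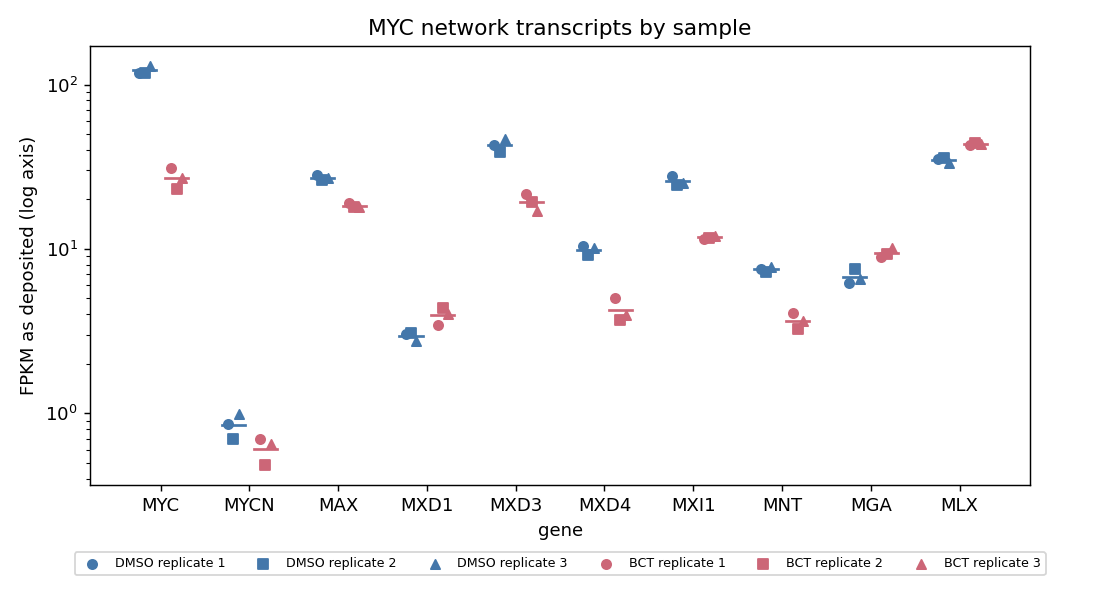
FPKM of the 10 network genes as deposited (log axis), with 1 symbol for each of the 3 DMSO and 3 BCT samples and a bar at each group mean. MYC is the highest of the 10 genes in every DMSO sample, at 117.7 to 129.9 FPKM, and lies below MLX in every BCT sample.

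MYC, the activator at the centre of the network, fell the most of the 9 genes. It lies on chromosome 8 from 128748315 to 128753680 of hg19 in the deposited annotation, on the plus strand. It was measured at 117.7, 118.0 and 129.9 FPKM in the DMSO samples and at 30.9, 23.1 and 27.0 FPKM in the BCT samples. Every BCT sample was far below every DMSO sample. The log2 fold change was -2.18 (standard error 0.10, adjusted p = 7.84e-07 from limma), a 4.53-fold fall. Within each sample MYC ranked at the 93.61 to 94.44 percentile of the genes tested with DMSO and at the 68.55 to 75.84 percentile with BCT, and a rank does not depend on how the samples were scaled to each other. MYC was the only one of the 9 genes that stayed called lower when the samples were rescaled to equal FPKM sums, at -1.41.

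The other MYC family genes were expressed at a low level. MYCN, the paralog known from neuroblastoma, on chromosome 2 from 16076387 to 16087129, was at 0.854, 0.700 and 0.988 FPKM in the DMSO samples and at 0.694, 0.486 and 0.647 FPKM in the BCT samples. Its groups did not overlap, but the lowest DMSO sample exceeded the highest BCT sample by a margin in the third decimal. When genes under the filter were fitted too, its log2 fold change was -0.42 (95% confidence interval -0.85 to 0.01, adjusted p = 0.0848 from limma over 21543 genes), so no change of MYCN was detectable. MYCL, the third paralog, was at 1.45, 1.09 and 1.36 FPKM in the DMSO samples and at 0.300, 0.253 and 0.304 FPKM in the BCT samples, and in the same fit it fell by 1.86 on the log2 scale (adjusted p = 4.56e-05). MYCL is not one of the 10 genes, and its mean lay under the filter as well.

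MAX, the shared partner of MYC, the MXD proteins, MNT and MGA, changed less than MYC. MAX was at 28.1, 26.4 and 26.9 FPKM in the DMSO samples and at 19.0, 17.9 and 18.03 FPKM in the BCT samples, with a clear gap between the groups. Its difference of -0.57 on the log2 scale (standard error 0.052, adjusted p = 1.42e-05) did not reach the fold change threshold, so it was not called. After rescaling to equal FPKM sums the sign turned, to 0.20, but no change was detectable there (adjusted p = 0.26 from limma). After rescaling without MIR6087 the difference was -0.18. With upper quartile scaling, median ratio scaling and quantile normalization it was -0.52, -0.53 and -0.55. The deposited position of MAX, chromosome 14 from 65381079 to 65569413, also covers CHURC1, FNTB, RAB15 and GPX2, while GENCODE places MAX from 65472892 to 65569413. FNTB, on the opposite strand, shares 822 exonic bases with MAX in GENCODE, or 13.1% of those of MAX, and was at 9.06 to 10.8 FPKM with DMSO and 6.51 to 7.99 FPKM with BCT. The library kit does not mark strand, so reads from the shared bases cannot be assigned to one of the genes with certainty.

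Among the MXD repressors, MXD3, MXD4 and MXI1 fell together, by 2.19-fold to 2.33-fold, whereas MXD1 was not called. None of these 3 falls held as a call when the FPKM sums were set equal (-0.36 to -0.46) or were set equal without MIR6087 (-0.74 to -0.84), although all 3 stayed lower. With upper quartile scaling, median ratio scaling and quantile normalization all 3 stayed called lower. MXD3, a repressor described in proliferating cells, was the most abundant of them, at 43.1, 38.9 and 46.8 FPKM in the DMSO samples and 21.4, 19.2 and 17.0 FPKM in the BCT samples. No BCT sample came near the lowest DMSO sample. The log2 fold change of MXD3 was -1.16 (standard error 0.097, adjusted p = 8.99e-06). The deposited MXD3 interval, chromosome 5 from 176730763 to 176739292, also holds PRELID1, which in GENCODE shares 1148 exonic bases with MXD3 on the other strand, 24.2% of those of MXD3, and RAB24 on the same strand shares 19.5%. PRELID1 was at 158.6 to 159.7 FPKM with DMSO and 102.1 to 122.1 FPKM with BCT. The part that shared reads have in the MXD3 values was not tested.

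MXD4, a MAX partner linked to differentiation and quiescence, was at 10.4, 9.15 and 10.1 FPKM in the DMSO samples and at 5.02, 3.69 and 3.98 FPKM in the BCT samples. BCT replicate 1 was again the highest of its group, yet well below the DMSO samples. The log2 fold change was -1.22 (standard error 0.11, adjusted p = 1.62e-05). MXD4 lies on chromosome 4 from 2249160 to 2263739 on the minus strand, and its annotated overlap with another gene is the miRNA MIR4800, which was listed at 0 in every sample. MXI1, also known as MXD2, was at 27.6, 24.5 and 25.3 FPKM in the DMSO samples and at 11.5, 11.7 and 12.0 FPKM in the BCT samples. The BCT samples of MXI1 were closer to each other than those of any other of the repressors called lower, and all were less than the lowest DMSO sample by a wide margin. Its log2 fold change was -1.13 (standard error 0.059, adjusted p = 1.12e-06), and it lies on chromosome 10 from 111967363 to 112047123.

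MXD1, the first described MAX dimerization partner of this group and a gene induced when many cell types differentiate, was at 3.01, 3.08 and 2.75 FPKM in the DMSO samples and at 3.42, 4.37 and 4.04 FPKM in the BCT samples. The BCT samples were all higher, but replicate 1 by little. The difference of 0.40 on the log2 scale (standard error 0.11, 95% confidence interval 0.16 to 0.64, adjusted p = 0.00697) lay within the fold change threshold, and MXD1 was called higher once the FPKM sums were set equal (1.15). MXD1 is on chromosome 2 from 70142173 to 70170076. In GENCODE it shares 237 exonic bases with SNRNP27 upstream of it on the same strand.

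MNT, the most widely expressed of the MAX-bound repressors in the body, was at 7.49, 7.27 and 7.80 FPKM in the DMSO samples and at 4.09, 3.25 and 3.63 FPKM in the BCT samples. The groups were well apart. Its log2 fold change was -1.03 (standard error 0.091, adjusted p = 1.19e-05), the smallest of the 5 falls, and its 95% confidence interval of -1.23 to -0.82 reached past the fold change threshold. Tested against that threshold itself, MNT was not called (adjusted p = 0.19 from limma's treat), unlike the other 4, and it was not called with FPKM sums set equal (-0.27) or set equal without MIR6087 (-0.65). With upper quartile scaling, median ratio scaling and quantile normalization MNT stayed called lower. MNT lies on chromosome 17 from 2287354 to 2304258 on the minus strand, and 12.2% of its exonic bases in GENCODE also belong to a long noncoding RNA on the other strand.

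MGA, a very large protein with a T-box domain as well as the MAX-binding zipper, went the other way. It was at 6.16, 7.55 and 6.56 FPKM in the DMSO samples and at 8.96, 9.36 and 10.1 FPKM in the BCT samples, so that every BCT sample was higher. The log2 fold change was 0.48 (standard error 0.086, adjusted p = 0.000813), within the fold change threshold, and MGA was called higher when the samples were rescaled to equal FPKM sums (1.24) or to equal sums without MIR6087 (0.86). It lies on chromosome 15 from 41952610 to 42062141. MLX, the partner of MondoA, was at 35.3, 35.7 and 33.3 FPKM in the DMSO samples and at 42.94, 43.98 and 43.74 FPKM in the BCT samples. All BCT samples were higher, with a log2 fold change of 0.33 (adjusted p = 0.000274, standard error 0.048) that was not called as deposited and was called after rescaling to equal sums (1.09). Its deposited interval, chromosome 17 from 40719078 to 40729849, also covers PSMC3IP, which shares 775 exonic bases with MLX on the other strand, 18.2% of those of MLX. PSMC3IP was at 41.8 to 45.2 FPKM with DMSO and 37.9 to 42.2 FPKM with BCT.

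**Figure D2:**
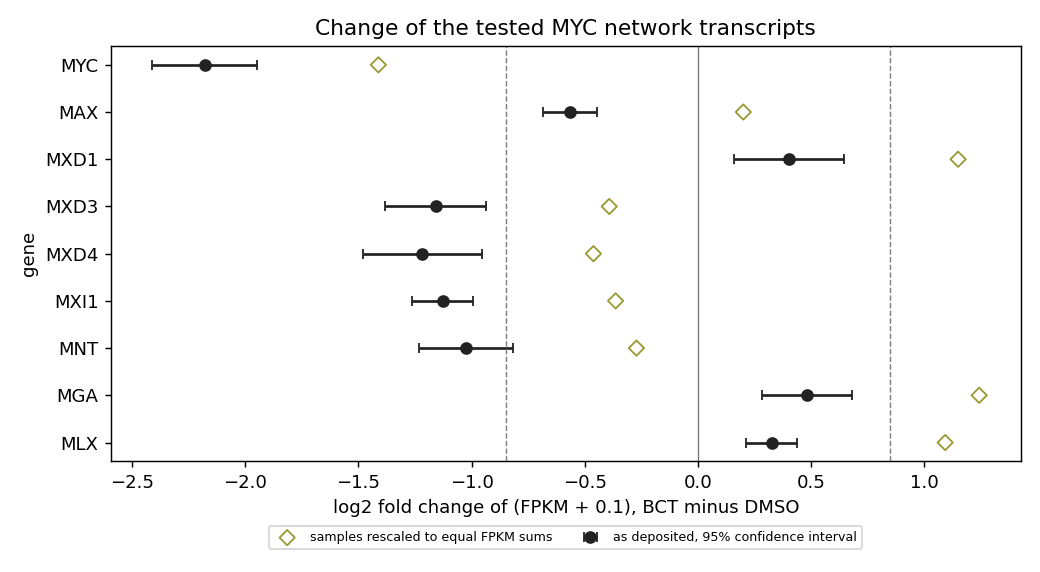
Log2 fold change of FPKM + 0.1 (BCT minus DMSO) for the 9 network genes tested, as deposited with the 95% confidence interval from limma (filled) and after setting the FPKM sums of all samples equal (open, no interval drawn). Dashed lines mark the threshold of 0.85 in each direction. MYC lies past the lower threshold on both scales, and the rescaling moves each gene to the right by a similar amount.

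The order of the network genes by FPKM, a level per transcript length, differed between the groups. With DMSO it ran MYC, MXD3, MLX, MAX, MXI1, MXD4, MNT, MGA, MXD1 and MYCN, and the neighbours MAX and MXI1, and MNT and MGA, overlapped in their samples. With BCT it ran MLX, MYC, MXD3, MAX, MXI1, MGA, MXD4, MXD1, MNT and MYCN. There MXD3 and MAX overlapped, as did MXD4 and MXD1, and MXD1 and MNT, so these neighbours were not separated. MLX thus stood first and MYC second with BCT, and MGA stood above MXD4 and MNT.

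Ratios of 2 genes within a sample do not depend on the scaling of the samples, and they describe the balance among MAX partners at the RNA level. The ratio of MYC to MAX in FPKM was 4.19, 4.47 and 4.84 with DMSO and 1.63, 1.29 and 1.497 with BCT. MYC transcripts thus exceeded those of MAX in every sample, by a smaller margin with BCT. Against the summed FPKM of MXD1, MXD3, MXD4, MXI1, MNT and MGA, MYC stood at 1.20, 1.31 and 1.31 with DMSO and at 0.567, 0.448 and 0.532 with BCT. MYC therefore exceeded this sum in each DMSO sample and was below it in each BCT sample, even though the sum itself was lower with BCT (50.75 to 54.49 FPKM) than with DMSO (90.40 to 99.37 FPKM). The mean difference on the log2 scale was -1.31, with a standard deviation of 0.069 among DMSO and 0.175 among BCT samples, and no p is given because the genes in the sum were chosen with earlier results known. The ratio of MYC to MNT was 15.7 to 16.7 with DMSO and 7.11 to 7.54 with BCT. The sum above includes MXD3, which shares exonic bases with PRELID1 and RAB24. The part that shared reads have in the sum, and in the shares given next, was not tested.

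The makeup of the repressor group shifted as well. MXD3 held 42.98% to 47.13% of the summed FPKM of the 6 genes with DMSO and 33.55% to 39.36% with BCT. MGA went from 6.30% to 8.35% with DMSO to 16.44% to 19.85% with BCT, and MXD1 from 2.77% to 3.41% to 6.29% to 8.48%. MXI1 held 25.47% to 28.19% and 21.19% to 23.65%. Relative to MAX on the log2 scale, MXD3 (-0.59), MXD4 (-0.67), MXI1 (-0.57) and MNT (-0.48) were lower with BCT by similar differences, and MXD1 (0.98), MGA (1.06) and MLX (0.89) were higher. MYCN differed by 0.09 relative to MAX, less than its standard deviation of 0.24 among samples of a group.

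**Figure D3:**
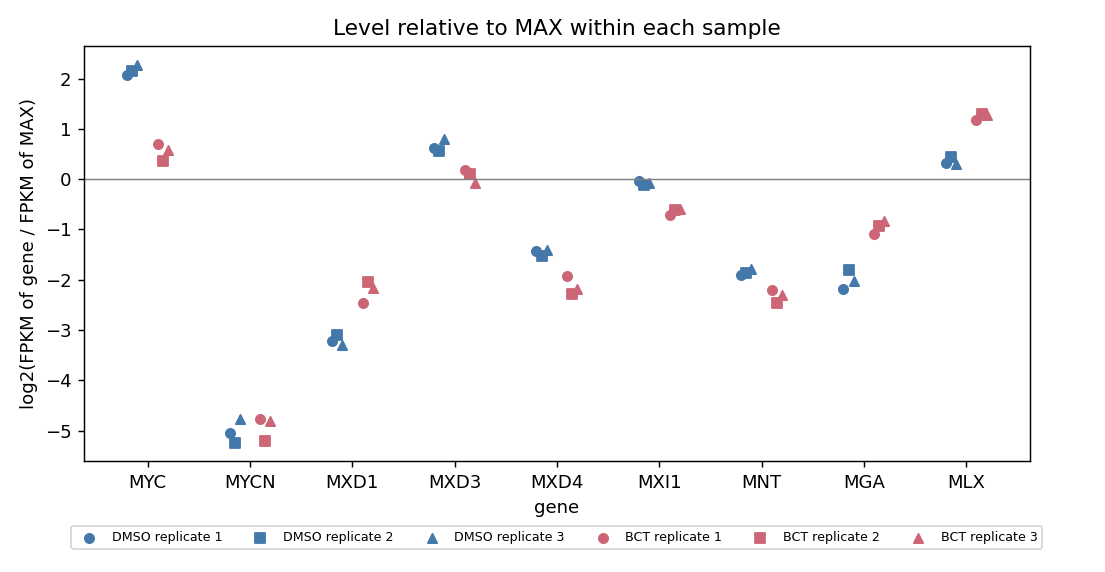
Log2 ratio of each network gene's FPKM to that of MAX within each sample, by group and replicate. MYC drops from 2.07 to 2.27 with DMSO to 0.37 to 0.70 with BCT, MXD1, MGA and MLX move up, and MYCN overlaps between the groups.

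The proteins that act with the network were described through 6 lists of cofactors and regulators. With FPKM sums set equal the median of all genes moved to 0.72 and the medians of these lists to between 0.53 and 1.17, so that the negative medians given here for other E-box factors and corepressors turned positive. Of 10 other E-box binding factors of the same class, 8 were tested, 1 fell and 1 rose (12.5% each, near the 17.8% and 13.9% of all genes tested), with a median log2 fold change of -0.21 against -0.04 over all genes tested. TFAP4 (AP4), itself a known direct MYC target, fell by 1.84 on the log2 scale, with group means of 19.6 ± 0.553 and 5.52 ± 1.37 FPKM (SD, n = 3 each). TFE3, a lysosomal and nutrient-sensing factor, rose from 8.29 ± 0.221 to 23.7 ± 1.69 FPKM, or 2.83-fold. MLXIP, which encodes MondoA, was not called (0.17), and USF1, a broadly expressed E-box factor, was at -0.01.

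Of 18 genes listed as MYC coactivators, 2 fell (11.1%, against 17.8% of all genes tested) and 6 rose (33.3%, against 13.9%), with a median of 0.41. The 6 include ZBTB17 (0.92), which encodes a MYC partner that is not a coactivator in the strict sense. The histone acetyltransferase genes moved in both directions, since CREBBP (1.64) and KAT5, the TIP60 enzyme (1.07), rose, as did EP300, the paralog of CREBBP, from 11.3 ± 1.62 to 34.5 ± 4.30 FPKM, and KAT2A, the GCN5 enzyme that acts within SAGA, fell (-1.07). PAF1, of the elongation complex of that name, rose from 50.5 ± 0.762 to 122.0 ± 10.3 FPKM (SD, n = 3 each). ACTL6A, a subunit of chromatin remodelling complexes, fell from 72.8 ± 3.72 to 38.7 ± 3.06 FPKM. TRRAP, the scaffold that MYC contacts, was not called (0.36), nor was WDR5 (-0.71).

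Of 12 corepressor genes through which MXD proteins and MNT act, 4 fell (33.3%, against 17.8% of all genes tested) and 2 rose (16.7%, near the 13.9% of all genes), with a median of -0.24. The histone-binding subunits RBBP4 (-1.45) and RBBP7 (-1.25) and the SIN3 complex subunit SUDS3 (-1.14) fell, as did HDAC1 by less. RBBP4 fell from 39.9 ± 0.318 to 14.6 ± 1.49 FPKM (SD, n = 3 each). ARID4A (1.24) and ARID4B (0.87), further SIN3 complex subunits, rose. SIN3A was just short of the threshold at -0.83, and its paralog SIN3B was at 0.41.

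Of 11 partners of MGA in PRC1.6, 3 fell and 2 rose (27.3% and 18.2%, against 17.8% and 13.9% of all genes tested), with a median of 0.15. TFDP1, the dimer partner of E2F6, fell from 84.2 ± 1.55 to 33.7 ± 2.17 FPKM, and the heterochromatin proteins CBX3 (-1.29) and CBX1 (-1.14) fell too. RYBP (1.48) and its paralog YAF2 (1.13) rose.

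Of 21 genes that set the turnover or phosphorylation of MYC protein, 3 fell (14.3%, near the 17.8% of all genes tested) and 6 rose (28.6%, against 13.9%), with a median of 0.01. Among the ubiquitin ligases that target MYC, SKP2 fell from 31.4 ± 1.16 to 8.95 ± 1.47 FPKM (-1.81), while HUWE1 (1.01), FBXW7 (0.92) and FBXO32 (0.89) rose. FBXW7, which recognises MYC phosphorylated by GSK3, went from 6.93 ± 0.460 to 13.2 ± 1.16 FPKM. The deubiquitinase genes split, as USP28 fell (-0.93) and USP36 rose (1.13). The kinase gene PIM1 fell (-1.61), and PPP2R5A, a PP2A subunit that acts on MYC, rose from 25.8 ± 1.38 to 57.3 ± 2.39 FPKM (1.15). AURKA was at 0.02 and KIAA1524, which encodes the PP2A inhibitor CIP2A, at -0.60, and neither was called.

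Of 19 genes linked to MYC transcription or to the stability of its mRNA, 17 were tested, 1 fell (5.88%, against 17.8% of all genes tested) and 3 rose (17.6%, near the 13.9% of all genes), with a median of 0.03. PVT1, the noncoding RNA gene next to MYC on the same chromosome, rose from 2.63 ± 0.420 to 7.19 ± 0.798 FPKM (1.42), opposite in direction to MYC. ZFP36 (TTP), which promotes the decay of AU-rich mRNAs, rose from 10.3 ± 0.492 to 48.6 ± 7.34 FPKM (2.21), the largest change in this list. IGF2BP2, an mRNA-binding protein, rose (1.20). NME2, described as a factor at the MYC promoter, fell from 1124 ± 44.3 to 441.0 ± 58.3 FPKM, and its reads may be shared with the adjacent paralog NME1. CCAT1, a long noncoding RNA upstream of MYC, was at most 0.076 FPKM in any sample and was not tested.

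Of 68 genes known to be activated by MYC, 66 were tested, 23 fell and 5 rose, with a median log2 fold change of -0.37. That is 34.8% called lower and 7.58% called higher, against 17.8% and 13.9% of all genes tested. The median became 0.40 after rescaling to equal FPKM sums and 0.02 without MIR6087 in the sum, where the medians of all genes were 0.72 and 0.34, so the list median lay below that of all genes on each of these scales. The largest falls were those of TMEM97, a sterol-responsive membrane protein gene (-2.98), the folate carrier gene SLC19A1 (-2.56) and UNG, the uracil DNA glycosylase gene (-2.47). TMEM97 fell from 47.6 ± 3.18 to 6.01 ± 1.35 FPKM (SD, n = 3 each). The largest rises were those of RRP12 (1.95), WDR74 (1.19) and NOC4L (1.05), which all act in ribosome assembly. RRP12 rose from 17.3 ± 1.95 to 67.4 ± 9.05 FPKM. Textbook targets were found both among the called and the uncalled genes. CDK4 (-1.07), NPM1 (-1.02) and FBL (-0.94) were called lower. ODC1, the ornithine decarboxylase gene, at 0.31, CAD at -0.04 and NCL, the nucleolin gene, at -0.70 were not called.

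A window was found for 56 of these 66 genes, and CACGTG was present for 30 of them (53.6%). It was present for 8.77% of all genes with a window and for 12.8% of the tested genes with one, and neither is a matched background. The list holds known MYC targets and MYC binds E-boxes, so a high share may follow from how its genes were chosen. Of the 30 genes with the E-box 13 fell and 2 rose, with a median log2 fold change of -0.55, and of the 26 without it 5 fell and 2 rose, with a median of -0.28. The difference between these groups was not tested. Of 17 genes known to be repressed by MYC, 14 were tested, 6 fell and 6 rose (42.9% each, against 17.8% and 13.9% of all genes tested). Their median was -0.05, and it turned to 0.71 with FPKM sums set equal, to 0.33 with sums set equal without MIR6087 and to 0.22 with quantile normalization. The rises were led by GADD45A (13.7 to 55.4 FPKM), DDIT3 (1.92 on the log2 scale) and CDKN1A (1.87), genes of growth arrest and stress that p53 or ATF4 can also induce. CDKN1A, which encodes p21, rose from 49.3 ± 2.03 to 181.0 ± 18.9 FPKM (SD, n = 3 each). The falls were led by CDKN2C, a CDK inhibitor gene (42.9 to 10.7 FPKM), BCL2 (-1.60), the gene of an inhibitor of apoptosis, and NDRG1 (-1.48), which is induced by androgen and hypoxia.

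The genes whose profile over the 6 samples was nearest to that of MYC were CYB5A, OAS3, HIBADH, PRKX and RPRML, by the Euclidean distance between log2(FPKM + 0.1) values after subtracting each gene's mean. The distances were 0.133 for CYB5A, a cytochrome b5 gene, 0.161 for OAS3, an interferon-induced gene, and 0.162 for HIBADH, an enzyme of valine breakdown, and none of the 5 is in the network or its lists. CYB5A was at 81.4, 77.7 and 84.4 FPKM in the DMSO samples and at 20.8, 16.3 and 17.1 FPKM in the BCT samples. With 6 samples in 2 groups this likeness rests mainly on the size of the difference between the groups.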

How the data were processed

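RNA from 22RV1 cells treated with DMSO (n = 3) or 10 nM BCT (n = 3) for 24 h was sequenced by the authors from TruSeq v2 libraries. Per the paper's methods, the authors trimmed reads with Trimmomatic, aligned them to hg19 with HISAT2, assembled them with StringTie and computed FPKM. Per the labels, processing also named Trimmomatic 0.38 and HTSeq. The gene annotation, the gene-level test and the tool that gave the deposited FPKM values are not given in the sources used here. Positions are those of the files with 1 added to the start. Gene overlaps come from GENCODE lifted to GRCh37, and start-site windows, matched by symbol or synonym, from RefSeq.

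No rescaling was applied to the FPKM values. The test used limma 3.58.1 (R 4.3.3) on log2(FPKM + 0.1) for genes averaging 1 FPKM or more, with moderated variances that follow a trend, two-sided p-values and Benjamini-Hochberg adjustment, and was also tested on simulated data. This scale understates changes of low genes. The gene lists were written from general knowledge, which can include published gene sets, and are described by counts and medians. The paper reports Myc among the Hallmark gene sets that were lower with BCT in these same samples. The MYC-activated list is therefore not an independent check of that result. The members and lists were chosen with earlier results of these data known. The text names the 10 members, per list the called genes of largest change (up to 3 a direction) and the 5 profiles nearest to MYC, except that some list genes are not reported here by name. Further list genes were chosen after their values were seen. Among them are MYCL, HDAC1, KAT5, ZBTB17, FBXW7, FBXO32, HUWE1, CDK4, NPM1, FBL and the named genes that were not called.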

Additional observations from a re-analysis of the deposited data

How the results depend on the processing

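The alternatives changed the pseudocount, the filter, the scaling, the adjusted p, the variance model, the test against the threshold, the replicate block and the samples used. Rescaling without MIR6087 was added after the data were examined. Of 179 values for the 9 network genes tested, 165 had the same sign and call, 9 lost the call, 4 gained one and 1 reversed. With FPKM sums set equal the median over all genes was 0.72 instead of -0.04. This turned the sign of MAX (0.20, adjusted p = 0.26 from limma), left 1 network gene called lower and made 3 called higher. Without MIR6087 in the sum the median was 0.34, with 1 called lower and 1 called higher. Relative to the median of all genes, MYC was at -2.10 to -2.14 on each scale. By the same measure MXD3 was at -1.11 to -1.15, MXD4 at -1.18 to -1.24, MXI1 at -1.08 to -1.15 and MNT at -0.99 to -1.02. MAX was at -0.52 to -0.58, MXD1 at 0.40 to 0.44, MGA at 0.47 to 0.52 and MLX at 0.36 to 0.37. FPKM values alone do not show which scale is the right one.

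Over all genes, 4027 were called (2263 lower, 1764 higher), a share of 56.2% lower. Equal sums gave 6282 (668 lower, 5614 higher, 10.6% lower), equal sums without MIR6087 1208 lower and 3370 higher (26.4% lower), and the test against the threshold 2425 (1392 lower, 1033 higher). Without a filter 2657 were called higher, and with a filter at 5 FPKM 1150. Leaving out 1 sample gave 3834 to 4420 calls, with 5 network genes called lower each time.

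The list medians moved by more than the spread between samples as follows. With equal sums, and with equal sums without MIR6087, they were 0.55 and 0.17 for other E-box factors, 1.17 and 0.79 for coactivators, 0.53 and 0.15 for corepressors, 0.92 and 0.54 for PRC1.6 partners, 0.78 and 0.40 for MYC turnover, 0.80 and 0.42 for MYC transcription and mRNA stability, 0.40 and 0.015 for MYC-activated targets, and 0.71 and 0.33 for MYC-repressed targets. Quantile normalization gave -0.13 for other E-box factors, -0.13 for corepressors, 0.24 for PRC1.6 partners, 0.12 for turnover, 0.30 for transcription and stability, -0.21 for activated and 0.22 for repressed targets. Upper quartile and median ratio scaling gave 0.058 and 0.052 for turnover and 0.078 and 0.072 for transcription and stability. A filter at 5 FPKM gave -0.083 for transcription and stability and 0.069 for repressed targets, and no filter -0.28 for the latter. Leaving out 1 sample gave 0.32 to 0.47 for coactivators, -0.022 to 0.023 for turnover and 0.003 to 0.047 for transcription and stability. The scalings other than quantile normalization multiply all genes of a sample by 1 factor, so list medians move with the median of all genes. That median was -0.04 as deposited, 0.72 with equal sums and 0.34 with equal sums without MIR6087. The cause of the remaining shifts was not tested.

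Same-numbered DMSO and BCT samples deviated from their group means with correlations of 0.116, 0.033 and 0.034. Differently numbered samples gave -0.115 to 0.074. The numbers were not taken as pairs, and with 3 samples in each group these correlations cannot exclude a pairing. With the replicate block 4033 genes were called (2266 lower, 1767 higher), and no call of a network gene changed.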
